A study of Mus musculus with 2 samples.

Results

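Mouse chromosome 10 carries 1633 rows of the table once Tet1, Dnmt3l and Lmnb2 are set aside, of 48550 rows in all, and each row stands for 1 gene. Members were chosen by the chromosome column alone, but the chromosome itself was picked from its 129 and cas values, so every allele ratio below is a description and carries no test. The reads came from total nuclear RNA of F121-6, a female hybrid line of mouse embryonic stem (ES) cells with 1 chromosome set of the 129 strain and 1 of *Mus musculus castaneus* (cas). The cells were grown with LIF on mouse embryonic fibroblasts (MEFs) inactivated with mitomycin-C, and the 2 libraries form 1 group with no untreated or other control. All values come from this 1 line. Whether the libraries are separate cultures is not in the labels. The p-values in the fit measure only the spread between them, pooled over genes of like abundance, which may be technical. A call therefore does not weigh how far the 2 libraries differ for that gene.

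In an F1 hybrid, the sequence differences between the parental strains tell which chromosome copy a read came from. Differences between the copies of a single gene are usually traced to regulatory variants nearby, which act gene by gene, or to imprinting, which silences the copy from 1 parent. Chromosome 10 of the mouse holds genes of many kinds, among them the imprinted Plagl1, the let-7 inhibitor Lin28b, the morphogen Nodal, the histone deacetylase Hdac2 and the cell cycle kinases Cdk1, Cdk2 and Cdk4.

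The libraries held 28523744 and 31402765 allele-assigned reads, 53.6% and 54.2% of them from 129. Of the ES cell markers Pou5f1, Nanog, Sox2, Zfp42, Esrrb, Tdgf1 and Dppa5a, 6 of 7 had at least 20 reads in each library, with a summed level of 2120 and 2090 CPM (allele reads scaled to a fixed library total). Sox2 was listed at 0 in both libraries, so a 0 in this table cannot be read as a silent gene. Of 8 fibroblast markers, 6 had at least 20 reads in each library, none was at 0 in both, and their summed level was 78.5 and 101 CPM, 83.5% and 86.7% of it from 129. Markers of trophoblast (4 genes) and primitive endoderm (4 genes) summed to between 12.6 and 15.1 CPM, and the 3 neural markers to 1.96 and 2.13, with Neurod1 and Tubb3 listed at 0.

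Of the 1633 members, 705 reached 20 allele reads in both libraries and are called tested genes below, 262 had fewer, and 666 were listed at 0 in every column. Ratios are log2(129/cas) of reads recovered as whole numbers, scaled so that the typical gene of the genome lies near 0, plus a pseudocount of 0.1 CPM, which understates the ratio of genes with few reads. A positive value is higher from 129. A fold change stated below is on this scale, and a 129 share with ± is the mean and SD of the 2 libraries.

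Before the values, 3 start-site sequences are shown for genes at different places in the range of ratios: Ptges3 close to the median of the chromosome, Tmtc2 with the largest excess of 129 reads among genes with many reads, and Lin28b with more cas reads. Each is the 250 bases before the RefSeq start site on the gene's own strand (GRCm38.p6, the build mm10 is drawn from), 5′ to 3′, with every CG dinucleotide in capitals. The reference is that of another strain, and any differences of the 129 or cas allele from it are not shown.
Ptges3, chr10:128058732-128058981, plus strand: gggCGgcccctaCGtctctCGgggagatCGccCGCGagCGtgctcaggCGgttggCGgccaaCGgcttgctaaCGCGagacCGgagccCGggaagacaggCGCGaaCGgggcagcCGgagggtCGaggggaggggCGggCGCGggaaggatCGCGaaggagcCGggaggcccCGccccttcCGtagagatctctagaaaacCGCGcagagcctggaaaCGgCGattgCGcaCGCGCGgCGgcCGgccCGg
Tmtc2, chr10:105574480-105574729, minus strand: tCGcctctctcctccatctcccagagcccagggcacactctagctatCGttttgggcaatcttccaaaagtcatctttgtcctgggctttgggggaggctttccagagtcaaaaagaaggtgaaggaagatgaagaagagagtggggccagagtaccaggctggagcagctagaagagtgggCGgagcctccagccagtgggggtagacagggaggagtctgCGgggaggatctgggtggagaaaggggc
Lin28b, chr10:45470202-45470451, minus strand: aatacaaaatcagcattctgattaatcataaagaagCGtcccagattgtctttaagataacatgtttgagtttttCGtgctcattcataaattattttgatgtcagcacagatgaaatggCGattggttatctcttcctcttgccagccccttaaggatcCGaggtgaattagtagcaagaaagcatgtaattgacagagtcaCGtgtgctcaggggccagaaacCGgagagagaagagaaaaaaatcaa
The Ptges3 sequence held 38 CG dinucleotides, a count reached by 5.7% of the matched chromosome 10 promoters and 3.27% of those of the other autosomes. The Tmtc2 sequence held 4, reached by 91.7% and 90.5%, and the Lin28b sequence 6, reached by 86.2% and 84.7%. The Lin28b sequence lies inside the gene's annotated span (45376620 to 45486395), so it is not at the annotated 5′ end. Ptges3 encodes a co-chaperone of Hsp90, Tmtc2 a membrane protein of the endoplasmic reticulum, and Lin28b an RNA-binding protein that blocks let-7 maturation. A promoter with its start site within 100 bp of the row's window centre was found for 456 of the 705 tested genes.

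Tested genes of chromosome 10 leaned toward 129 as a body. Their median log2 ratio was 0.68, or 1.6-fold. Library 1 gave 0.66 and library 2 gave 0.64, and the quartiles were 0.29 and 1.10. On the other 18 autosomes, with 14246 tested genes, the median was -0.02, with quartiles of -0.37 and 0.42. The difference of the medians was 0.71, with 0.67 in library 1 and 0.68 in library 2. With 1 shared size for both alleles of a library it was 0.70. Scaling shifts all genes of a library alike, so it could hardly move this difference, and nothing is read from that. In terms of reads, the median gene of chromosome 10 had 66.1% of its reads from 129 in library 1 and 66.9% in library 2, against 54.9% and 55.6% on the other autosomes.

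**Figure D1:**
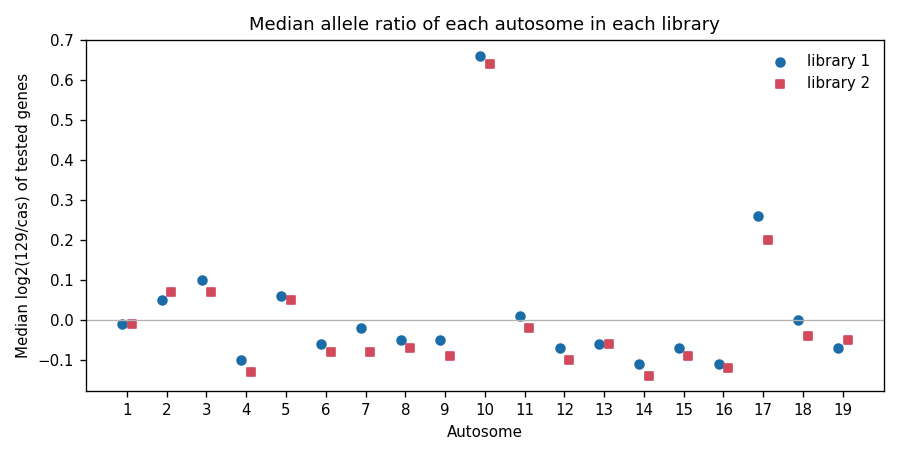
Median log2(129/cas) of the tested genes of each autosome (x axis, autosome number), with 1 circle for library 1 and 1 square for library 2. Chromosome 10 lies at 0.66 and 0.64, and the others lie between -0.14 and 0.26.

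Set beside each other autosome, chromosome 10 had the highest median in each library. The medians of the other 18 autosomes ran from -0.11 to 0.26 in library 1 and from -0.14 to 0.20 in library 2. Chromosome 17 held the highest of these in each library, and the next was 0.10 and 0.07. The libraries thus gave the same pair of chromosomes at the top, and the SD of the chromosome 10 median between them was 0.01 (n = 2). Chromosome 10 took 3.63% and 3.64% of all allele reads.

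The columns themselves showed both a higher 129 level and a lower cas level in the typical gene. In library 1 the median tested gene of chromosome 10 had 252 reads from 129, against 208 on the other autosomes, and 130 reads from cas, against 164. In library 2 it had 288 against 255 from 129, and 145 against 194 from cas. The ratio of chromosome 10 to the other autosomes was therefore 1.21 and 1.13 in the 129 columns and 0.79 and 0.75 in the cas columns. Single autosomes varied more. In library 1 their 129 medians ran from 127 on chromosome 7 to 446 on chromosome 18, and their cas medians from 115.5 to 328. Both levels of chromosome 10 lay inside these ranges. These medians compare different sets of genes, whose lengths and numbers of informative sites are not matched, and read counts of an allele do not tell chromosome copies from RNA made per copy.

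The lean was spread over most genes. A ratio above 0 was found for 615 of the 705 tested genes (87.2%), against 48.2% on the other autosomes, where the highest share of any chromosome was 66.1%. Both libraries were above 0 for 565 genes and both below 0 for 64. In the fit across all 15509 tested genes of the genome (limma, Benjamini-Hochberg adjusted p under 0.05, library as a block), 464 of the 705 were called, 426 higher from 129 and 38 higher from cas. Over all tested genes 43.9% were called, 21.9% higher from 129 and 22.0% higher from cas. On chromosome 10 the shares were 60.4% and 5.39%; since the chromosome was picked from this contrast, nothing is read from these counts. The ratio was at least 2-fold for 170 of the genes called toward 129 and for 20 of those called toward cas. Among all 15509 tested genes these counts were 1648 and 1034. Some of the 38, such as Lace1 and Cradd, had more 129 reads in both libraries and lay toward cas only on the scaled ratios. With 1 shared size for both alleles, 26 were called toward cas. The shared size put the median of all genes at 0.32 and that of chromosome 10 at 1.0. Of the chromosome 10 calls 95.4% were then toward 129, against 91.8%. Over all genes these shares were 81.3% and 50.0%.

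**Figure D2:**
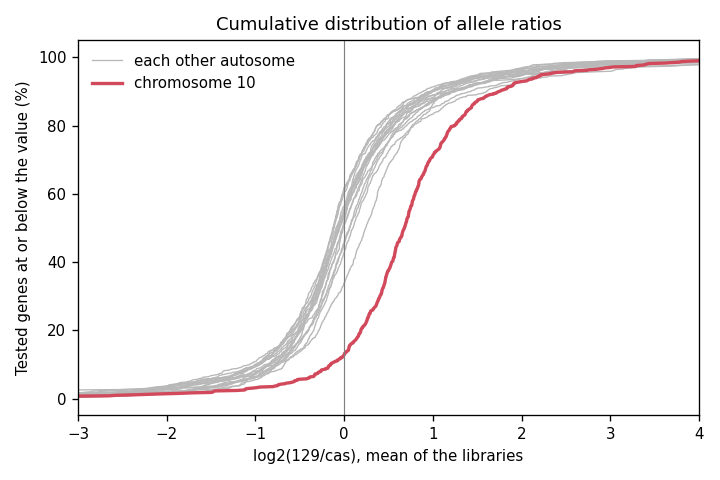
Share of tested genes (y axis, percent) with a log2(129/cas) ratio at or below the value on the x axis, for chromosome 10 (thick line) and each of the other 18 autosomes (thin lines). The curve of chromosome 10 lies to the right through most of its range and leaves 87.2% of genes above 0, against 38.3% to 66.1% on the other autosomes.

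The summed reads of the chromosome also leaned toward 129, though other autosomes came closer to it than by the medians. Over all tested members, 64.7% of the reads of library 1 and 65.6% of library 2 came from 129. Without the 8 members with the most reads, chosen after the values were seen, the mean of the libraries was 64.1%, from 65.1%. Summed shares of the other autosomes ranged from 44.2% (chromosome 2) to 63.2% (chromosome 9) in library 1 and from 46.5% (chromosome 19) to 59.8% (chromosome 13) in library 2. The 262 members below the read minimum, which are in no median above, had 1455 reads from 129 against 713 from cas in library 1 and 1753 against 724 in library 2, a 129 share of 67.1% and 70.8%. On the other autosomes, genes below the minimum gave 57.9% and 58.7%.

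Along the chromosome, every 10 Mb bin with at least 10 tested genes leaned toward 129. Genes were grouped by the start column into 14 bins, and 13 held that many; the last, from 130 Mb on, held 2 genes of opposite sign. The medians ran from 0.43 in the bin from 40 to 50 Mb (44 genes) to 0.91 in the bin from 70 to 80 Mb (87 genes). The 13 medians lay above 0.26, the 95th percentile of the 236 bins of the other autosomes held to the same minimum. Of those 236, 5 had a median above the lowest of chromosome 10, the highest being 0.96 on chromosome 5 from 10 to 20 Mb and 0.71 on chromosome 1 from 140 to 150 Mb. In the libraries taken alone, the bins of chromosome 10 lay between 0.37 and 0.89 in library 1 and between 0.30 and 0.92 in library 2.

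**Figure D3:**
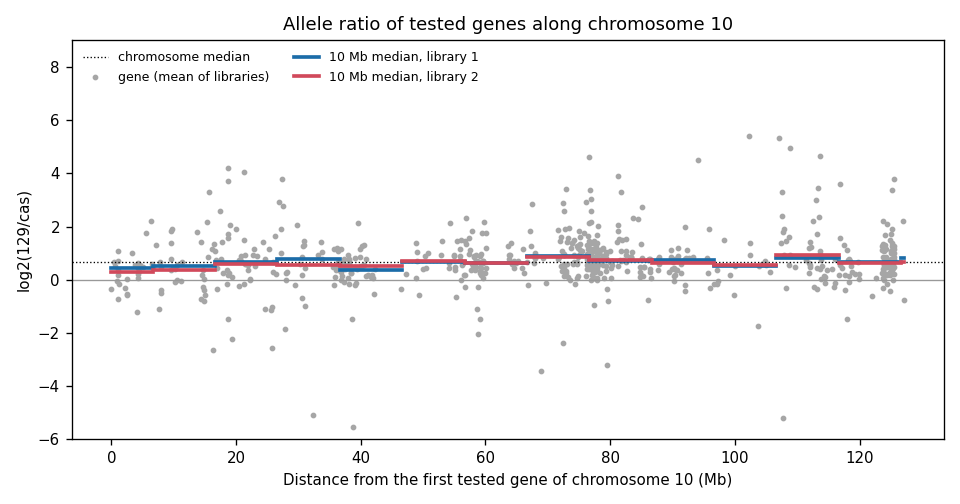
log2(129/cas) of the 705 tested genes (grey points, mean of the libraries) by distance in Mb from the first tested gene of chromosome 10, with the median of each 10 Mb bin in library 1 (blue) and library 2 (red) and the median over the chromosome (dotted). The bin medians stay above 0 along the whole length, while single genes range from -5.53 to 5.38.

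The lowest bins lay in the first 20 Mb and from 40 to 50 Mb. The bins from 0 to 10 Mb (29 genes) and from 10 to 20 Mb (37 genes) had medians of 0.46 and 0.45. Ppp1r14c, an inhibitor of protein phosphatase 1, was the first by position with 100 or more reads in both libraries and had 50 reads from 129 and 75 from cas in library 1 but 112 and 77 in library 2. Its ratios of -0.86 and 0.18 differ in sign between the libraries. Akap12, a scaffold for protein kinase A at 4266380 to 4359470, had 14706 against 11752 reads in library 1 and 14720 against 12432 in library 2. Its ratio was -0.05 without a call, and with the shared size it was 0.28 and called toward 129.

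In 5 Mb bins, those from 45 to 50 Mb (6 genes) and from 100 to 105 Mb (8 genes) were the lowest, with medians of 0.09 and 0.05. Their values were 0.17 and 0.16 in library 1 and -0.07 and -0.01 in library 2, so these bins showed no lean in the same direction in both libraries. Lin28b (45376620 to 45486395) had 1591 reads from 129 and 1852 from cas in library 1, and 1620 and 1839 in library 2, so cas was higher in both and the ratio was -0.53. Next to it, Hace1, a ubiquitin ligase, had 3205 against 2048 and 3394 against 1889 reads and a ratio of 0.42, while Prep, a prolyl endopeptidase, had 0.11 and the glutamate receptor gene Grik2 -0.33, both without a call; with the shared size Prep was 0.44 and called. The neighbours Lin28b and Hace1 thus had opposite leanings. These genes and this bin, as well as those of the next paragraph, were picked after their values were seen.

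The highest stretch lay between 110 and 115 Mb, where 16 tested genes had a median of 1.43, with 1.14 in library 1 and 1.6 in library 2. Nav3, a neuron navigator gene at 109681259 to 110456204, had 1636 reads from 129 against 20 from cas and 2194 against 67, a ratio of 5.31. Csrp2, a LIM protein of the cytoskeleton, had 664 against 54 and 760 against 59 (3.29), and E2f7, a repressor of E2F targets, 971 against 302 and 1057 against 311 (1.39). Caps2 had 50 reads from 129 in each library and 0 from cas, which by the limit of 3 counts allows a cas share of up to 3% of its 100 reads. In the same stretch Nap1l1, a histone chaperone, had 5544 against 5505 and 4415 against 4266 reads, a ratio of -0.30 (0.03 with the shared size), and Rpl6l, a processed pseudogene, had 1 read from 129 in each library against 92 and 63 from cas. Strong ratios of both directions thus lay within the same stretch. Over the chromosome, the longest run of neighbouring tested genes with a ratio above 0 was 52 genes, and the longest at or below 0 was 3.

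At the far end, the bin from 120 to 130 Mb (100 genes) had a median of 0.67, with 56 genes called toward 129 and 1 toward cas, where 21.9% and 22.0% of all tested genes were. It also held the lowest window of 25 neighbouring genes on the chromosome, from Msrb3 (120896601) on, with a median of 0.25. Itga7, the laminin receptor integrin alpha 7 at 128933818 to 128958282, was the last by position with 100 or more reads in both libraries, with 161 against 10 and 234 against 10 reads (3.78). Itga7 is also in the list of fibroblast genes. Beyond it, the 2 genes of the last bin differed: Tespa1 had 27 against 6 and 61 against 6 reads (2.2), and the pheromone receptor gene Vmn2r87 14 against 12 and 7 against 17 (-0.75).

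Genes listed from textbook knowledge as silent or near silent in fibroblasts leaned toward 129 on chromosome 10 as well. Whether the feeder cells expressed them was not tested. Of 57 such genes, drawn from ES and germ cell genes and from genes of neurons and other tissues, 36 were tested and 10 were listed at 0. Their median ratio was 0.62, with 0.57 in library 1 and 0.47 in library 2, and 30 of the 36 were above 0. The like list of the other autosomes, with 81 tested genes, had a median of -0.08, with -0.03 and -0.08 in the libraries, and 38 of 81 above 0. By calls, 12 were higher from 129 and 2 from cas on chromosome 10, against 24 and 29 on the other autosomes. That is 38.9% called, against 65.8% over the chromosome and 43.9% over all tested genes. The summed 129 share was 58.9% and 59.9% for the chromosome 10 list and 53.7% and 54.2% for the other.

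Within it, the 5 tested ES and germ cell genes were low for the chromosome, with a median of 0.19 (0.16 and 0.22 in the libraries). Lin28b was called toward cas. Aire, best known as a transcription factor of the thymus, had 533 reads from 129 and 279 from cas in library 1 and 643 and 305 in library 2, a ratio of 0.67, and was called toward 129. Nodal, the ligand that patterns the early embryo (61417972 to 61425338), had 268 against 139 and 282 against 190 reads (0.43). Usp44, a deubiquitinase of the spindle checkpoint, had 445 against 325 and 536 against 359 (0.19), and the Ets factor gene Spic 51 against 43 and 85 against 52 (0.15). The last 3 had more 129 reads in both libraries and were not called. With the shared size Nodal (0.75) and Usp44 (0.51) were called toward 129, and Nodal also with the deposited column totals (0.53). Sycp3, of the synaptonemal complex of meiosis, was listed at 0. On the other autosomes, 44 tested genes of the like list had a median of -0.16.

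The genes of neurons and other tissues had a median of 0.64 over 31 tested members, 26 of them above 0, with 11 called toward 129 and 1 toward cas, or 38.7%, against 65.8% over the chromosome and 43.9% over all tested genes. Ank3, an ankyrin of axons and epithelia and the most read of them, had 5672 against 3947 and 6553 against 4169 reads, a 129 share of 60.0% ± 1.52 and a ratio of 0.26. Slc6a15, a transporter of neutral amino acids, had 64.5% ± 1.05 (0.53), the potassium channel gene Kcnc2 70.7% ± 3.07 (0.94) and the hair cell cadherin gene Cdh23 71.1% ± 0.79 (0.96), all called toward 129. Anks1b, with 56.6% ± 0.38, and Nkain2, with 52.5% ± 1.93, had ratios of 0.05 and -0.18 without a call, and of 0.38 (called) and 0.14 with the shared size. The like list of the other autosomes had a median of 0.08 over 37 genes, with 15 called toward 129 and 11 toward cas.

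**Figure D4:**
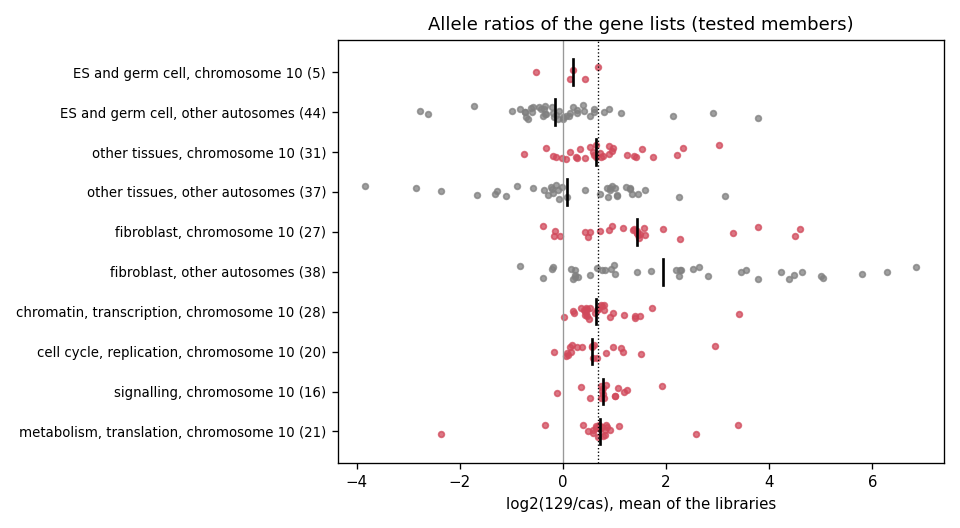
log2(129/cas) of the tested members of each gene list, on chromosome 10 (red) and, for 3 lists, on the other autosomes (grey), with the median of each list as a black bar, the number of genes in brackets and the median of chromosome 10 as a dotted line. Points are jittered in height; the fibroblast lists lie highest on both, at 1.43 and 1.94.

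Genes of fibroblasts on chromosome 10 leaned further, with a median of 1.43 over 27 tested members, from 1.26 in library 1 and 1.33 in library 2. Of these, 22 were called toward 129 and none toward cas, at background shares of 21.9% and 22.0%, and the other 5 were not called. The fibroblast list of the other autosomes had a median of 1.94 over 38 genes, from 1.59 and 2.0. Col18a1, a basement membrane collagen gene at 77052178 to 77166548, had 4989 reads from 129 and 1692 from cas in library 1 and 6727 and 1880 in library 2 (1.37). Nuak1, an AMPK-related kinase, had 799 against 237 and 865 against 251 (1.44), and P4ha1, which hydroxylates collagen prolines, 1740 against 798 and 2519 against 995 (0.90). The architectural chromatin protein gene Hmga2 had 8729 against 5807 and 12432 against 6575 reads (0.42), Lrp1, an endocytic receptor, 3600 against 2012 and 3845 against 2130 (0.52), and Kitl, the ligand of Kit, 583 against 476 and 545 against 541 (-0.18, or 0.15 with the shared size, not called in either). The labels name no strain for the feeders. With both fibroblast lists set aside, the median of chromosome 10 lay 0.69 above that of the other autosomes, against 0.71 with them. As this removed only 27 and 38 tested genes, a median could hardly move, and nothing on feeder RNA is read from it. RNA of feeder cells in genes outside these lists was not tested. In RNA pooled from many cells, fewer cells of a type and less RNA per cell cannot be told apart.

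Of the list of imprinted genes, both tested members leaned toward 129. Plagl1, a paternally expressed zinc finger gene at 13060504 to 13131694, had 1517 reads from 129 and 408 from cas in library 1, and 1437 and 237 in library 2, a share of 82.3% ± 4.98 and a ratio of 1.91. Decorin (Dcn), a small proteoglycan that is imprinted in placenta, had 75 against 4 and 77 against 0 reads, a pooled 129 share of 97.4% (exact 95% interval 93.6 to 99.3, counting error only). Dcn is also in the fibroblast list. The direction of the cross is not in the labels.

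Regulators of chromatin and transcription leaned toward 129, with 28 of 28 tested members above 0 by the mean of the libraries, against 87.2% over the chromosome. Their median was 0.64 (0.62 and 0.68). Yeats4, Mbd3 and Stat6 were slightly below 0 in 1 library, and the listed Nab2 had too few reads to be tested. In calls, 23 were higher from 129, none from cas and 5 were not called, so that 82.1% were called, against 65.8% over the chromosome and 43.9% over all tested genes. Jmjd1c, a Jumonji-family demethylase gene, had 15515 reads from 129 and 6568 from cas in library 1 and 15590 and 6570 in library 2, so both libraries gave a 129 share near its mean of 70.3% ± 0.07 (0.91). Foxo3, a forkhead factor downstream of insulin signalling, had 8510 against 4910 and 8484 against 4877 (0.47), Arid5b, an AT-rich interaction domain factor, 7798 against 4068 and 7653 against 3908 (0.63), and Cnot2, of the deadenylase complex, 7739 against 4618 and 6972 against 3967 (0.45). Baz2a, of the nucleolar remodelling complex, had a ratio of 0.69 and the deacetylase gene Sirt1 0.45. Each of these 6 had more 129 reads in both libraries.

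Genes of the cell cycle, replication and repair had a median of 0.57 over 20 tested members (0.62 and 0.45), 12 called toward 129, none toward cas and 8 not called, or 60.0% called, against 65.8% over the chromosome and 43.9% over all tested genes. Rev3l, the catalytic subunit of DNA polymerase zeta, had 7682 reads from 129 and 3963 from cas in library 1 and 7594 and 3770 in library 2 (0.65). Zwint, of the kinetochore, had 3135 against 1452 and 3427 against 1489 (0.83), Cry1, a repressor of the circadian clock, 3856 against 1047 and 3209 against 926 (1.51), Pcnt, of the centrosome, 2727 against 1343 and 2420 against 1349 (0.60) and the apoptosome gene Apaf1 2061 against 1298 and 2323 against 1413 (0.36). Cep290, a protein of the ciliary transition zone, had more 129 reads in library 1 (1324 against 945) and more cas reads in library 2 (1135 against 1279), with ratios of 0.19 and -0.53 and no call (mean -0.17, or 0.16 with the shared size).

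Signalling genes had a median of 0.79 over 16 tested members, 15 of them above 0, with 13 called toward 129 and none toward cas, or 81.2%, against 65.8% over the chromosome and 43.9% over all tested genes. The tyrosine kinase gene Fyn had 3436 reads from 129 and 2027 from cas in library 1 and 3817 and 2496 in library 2 (0.36). Bcr (0.76), the FGF receptor adaptor gene Frs2 (0.73), the antiproliferative Btg1 (0.84) and the innate immune kinase gene Tbk1 (0.78) lay closer together. Socs2, an inhibitor of cytokine signalling, had 1130 against 436 and 1287 against 708 reads, with ratios of 1.07 and 0.50.

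In the list of metabolism and translation, 17 of 21 tested members were called toward 129 and 2 toward cas, with a median of 0.73 (0.75 and 0.71). The 19 calls are 90.5%, against 65.8% over the chromosome and 43.9% over all tested genes. The elongation factor gene Eef2 had 3968 reads from 129 and 1762 from cas in library 1 and 3672 and 1694 in library 2 (0.81). Hsp90b1, a chaperone of the endoplasmic reticulum (0.84), Naca, of the nascent chain complex (0.68), Ptges3 (0.73) and Amd1, of polyamine synthesis (0.63), were close to it and to each other. Txnrd1, the cytosolic thioredoxin reductase, went the other way with 2548 against 2909 reads in library 1, but had 2674 against 2372 in library 2, and its ratio was -0.34. With the shared size it was -0.01 and no longer called. Mif, a cytokine gene with processed copies elsewhere in the genome, had 46 against 147 and 30 against 171 reads (-2.37).

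Among the 8 members with the most reads, which held 16.3% of the reads of tested members, the 129 share ran from 53.8% to 98.1%. Tmtc2 (105187663 to 105574451) was the most read, with 27966 reads from 129 against 506 from cas in library 1 and 30799 against 617 in library 2, a share of 98.1% ± 0.13 and a ratio of 5.38; 5 annotated genes overlap its span on the same strand and 3 on the other. Utrn, a relative of dystrophin, had 14281 against 4640 and 16284 against 4755 (1.37), the receptor phosphatase gene Ptprk 18321 against 8719 and 21875 against 10056 (0.77), and D10Wsu102e 12017 against 6096 and 12720 against 6454 (0.65). Grip1, a scaffold of glutamate receptors, had 6247 against 5306 and 8999 against 7802 reads. Its ratio was -0.11 without a call, and with the shared size it was 0.22 and called toward 129. Utrn, Ptprk, D10Wsu102e, Jmjd1c and Hmga2 lay between 62.7% and 76.4% from 129, and Akap12 and Grip1 at 54.9% and 53.8%.

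**Figure D5:**
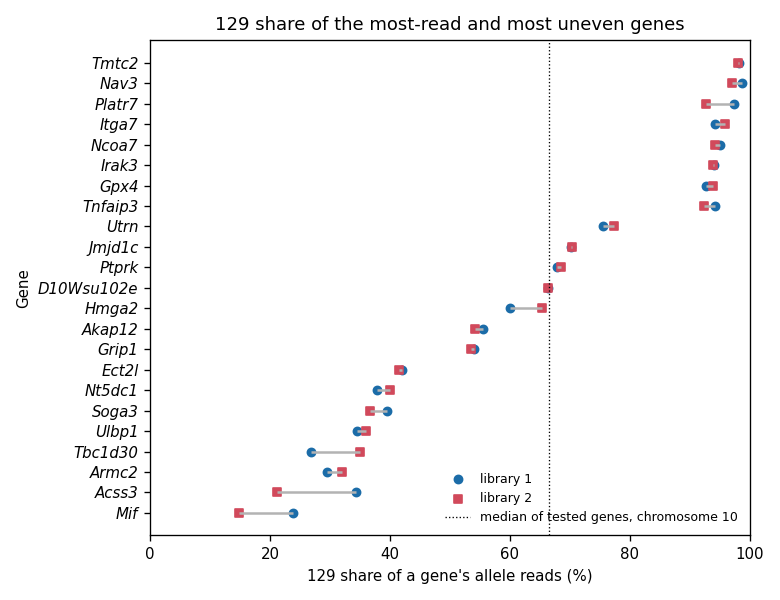
129 share of the allele reads (x axis, percent) of the 8 most-read genes and of the 8 genes with the largest called ratio in each direction and at least 100 reads in each library (Tmtc2 belongs to both), in library 1 (circle) and library 2 (square), with the median of tested genes of chromosome 10 dotted. Genes run from Mif at 19.4% to Tmtc2 at 98.1%.

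The largest ratios toward 129, among called genes with 100 or more reads in both libraries and without predicted, Rik, small RNA and -ps symbols, were those of Tmtc2 and Nav3, followed by Platr7, a long noncoding RNA (151 against 4 and 218 against 17 reads, 3.89). Ncoa7, a nuclear receptor coactivator gene, had 2557 against 135 and 3420 against 209 (3.8), but 5 annotated genes overlap its span on the same strand. Irak3, an inhibitor of Toll-like receptor signalling, had 1044 against 66 and 1514 against 98 (3.62). Gpx4, which reduces lipid peroxides, had 292 against 23 and 276 against 18 (3.39), and Tnfaip3, an inhibitor of NF-kB, 114 against 7 and 133 against 11 (3.30). In each of these the cas reads were few but present in both libraries.

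Toward cas, the same rule gave Mif, Acss3, Armc2, Tbc1d30, Ulbp1, Soga3, Nt5dc1 and Ect2l. Acss3, a mitochondrial acyl-CoA synthetase gene, had 73 reads from 129 and 140 from cas in library 1 and 65 and 243 in library 2, with ratios of -1.22 and -2.23. Ulbp1, a ligand of the killer cell receptor NKG2D at 7440362 to 7473638, had 1010 against 1917 and 1300 against 2316 reads, a 129 share of 35.2% ± 1.02 (-1.21). Nt5dc1 had 925 against 1525 and 1270 against 1904 (-0.98), Soga3 220 against 337 and 285 against 492 (-1.03), and Ect2l 203 against 279 and 262 against 368 (-0.80). Armc2, needed for sperm tails, had 52 against 124 and 85 against 181 (-1.48), and Tbc1d30, a Rab regulator, 45 against 123 and 69 against 128 (-1.47). These 8 genes had more cas reads in both libraries. Further genes with many reads, named after their values were seen, were Chst11, a chondroitin sulfotransferase gene (4415 against 6141 and 4676 against 6314, -0.78), and Nhsl1 (2704 against 3215 and 3391 against 3937, -0.56).

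The few tested pseudogenes of chromosome 10 did not share the lean toward 129. Of 13, 6 (46.2%) were called toward cas and 1 (7.69%) toward 129, where 22.0% and 21.9% of all tested genes were. Their median was -1.09, but the quartiles were as wide as -1.85 and 0.81, and 46.2% lay above 0. The 387 pseudogenes of the other autosomes had a median of -0.09, with 111 called toward 129 and 124 toward cas. Besides Rpl6l, with a pooled 129 share of 1.27% (exact 95% interval 0.155 to 4.53), Gm9855 had 0 reads from 129 and 122 from cas, which by the same limit of 3 counts allows a 129 share of up to 2.46%, and Gm9923 had 5 against 86 and 12 against 76 reads. Amd2, an intronless copy of Amd1, had 4 against 82 and 0 against 85. The sources used here do not give how reads that also match the parent gene were counted, so these ratios are uncertain, and those of their parent genes such as Amd1 may share reads with them. The 643 tested protein-coding genes had a median of 0.68, against -0.03 on the other autosomes, and 31 long noncoding or unclassified transcripts 0.77 against 0.10.

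The genes were also split by read depth, overlap, strand and promoter sequence. Genes reaching 1000 reads in both libraries (217) had a median of 0.55, against -0.09 on the other autosomes, those with 100 to under 1000 reads (326) 0.73 against 0.01, and those with 20 to under 100 reads (162) 0.95 against 0.12. Medians were lower at greater depth on chromosome 10 and on the other autosomes alike. The 324 genes whose annotated span overlaps no other gene had 0.70 against -0.03, and those overlapped on the same strand (151) 0.69 against -0.02. Genes on the plus strand (349) and the minus strand (356) had 0.67 and 0.70. Of the genes with a matched promoter, the 259 with at least 16 CG dinucleotides in the 250 bases before the start, as in Ptges3, had a median of 0.67, and the 197 with fewer, as in Tmtc2 and Lin28b, 0.72; on the other autosomes the medians were -0.04 and 0.01. Between the libraries, a gene's ratio differed by a median of 0.27 on chromosome 10 and 0.26 on the other autosomes, and across the 543 genes of chromosome 10 with 100 or more reads in both libraries the ratios had a Pearson r of 0.84, a description over genes that share libraries.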

How the data were processed

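Per the labels' protocols, strand-specific total nuclear RNA libraries made earlier were sequenced again (100 bp paired-end) and the reads merged; per the submitters' processing notes, Bowtie2 and the build mm10 were used. For the counting program, SNP set, annotation and use of strand, the sources used here give nothing. The authors deposited RPKM values, 1 column per allele and library, although the file headers call them counts. Multiplied by length, 100.0% of values came out as whole reads (tolerance 0.01 read), which gave 15300476 and 13223268 reads (129, cas) in library 1 and 17006241 and 14396524 in library 2. Deposited lengths did not follow the genes beside them (Spearman rho 0.01 with the annotated span over 687 tested members, against 0.46 for recovered reads), so no value per length is used, and at least 1 symbol, 9-Mar, had turned into a date. As the deposited unit is not counts, limma 3.58.1 in R 4.3.3 was fitted to log2(CPM of these reads + 0.1) over all 15509 rows with at least 20 reads in each library, off the Y chromosome, with library as a block, trended variance and columns scaled by trimmed means of M values. limma estimated infinite prior degrees of freedom: genes of like abundance share 1 spread. The code was tested on simulated data. Members were matched to GENCODE M21 by name, chromosome and strand (97.3%), and promoter sequences are from RefSeq (GRCm38.p6). The members and lists were chosen with earlier results of these data known, and lists were drawn from textbook knowledge. Genes named are the 8 with the most reads, the 8 with the largest called ratio each way (at least 100 reads in each library, same sign in both, no predicted, Rik, small RNA or -ps symbols), up to 6 most-read genes per list, and the first and last gene by position with at least 100 reads in each library; others are said to be picked after their values were seen. From the lists for the other autosomes, Timp3 was left out because it lies on chromosome 10 (listed at 0), and genes off the autosomes were left out too. Alternatives changed scaling, pseudocount, read minimum, gene set, block, test, bin width and libraries. Intervals and limits from counts cover counting error only.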

Additional observations from a re-analysis of the deposited data

How the results depend on the processing

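Calls on chromosome 10 stayed within 1.5 times of the main counts under 8 of 9 alternatives. Testing for a change beyond 1.5-fold left 155 calls of 464, 138 toward 129 and 17 toward cas. That is 22.0% of tested members, against 12.8% of all tested genes. With no replicate block there were 339 calls, 313 and 26, or 48.1%, beside 3954 over all genes, or 25.5%. The exact binomial test in each library made 508, or 72.1%, against 45.3% over all genes. No calls were made from 1 library, which leaves no residual degrees of freedom. The chromosome's median of 0.68 was 1.0 with 1 shared library size for both alleles, 0.78 with deposited column totals and 0.61 with a pseudocount of 1 CPM, and 0.64 to 0.66 when a library was left out. Its difference from the other autosomes, 0.71, was 0.70 with a shared size, a change that could hardly move it. It was 0.63 with a pseudocount of 1 CPM, 0.70 with a minimum of 100 reads and 0.68 with no minimum. It was 0.72 without predicted, Rik, small RNA and -ps symbols, 0.69 without the fibroblast lists and 0.67 to 0.68 with a library left out. For the genes listed as without fibroblast expression, the median of 0.62 was 0.94 with a shared size and 0.72 with column totals. It was 0.51 with a pseudocount of 1 CPM, 0.50 with at least 100 reads and 0.48 with no minimum. With a library left out it was 0.47 to 0.57. Of bins with at least 10 genes, the lowest of 10 Mb lay 0.45 above the other autosomes' median, that of 5 Mb 0.29, and that of 10 Mb 0.34 to 0.38 with a library left out; 2 smaller bins of 5 Mb had medians of only 0.05 and 0.09. The summed 129 share of 65.1% was 64.1% without the 8 most-read genes and 64.2% without Tmtc2, both chosen after seeing the data. With a shared size the ratios of the 80 named genes rose by 0.15 to 0.33, and 6 changed sign: Akap12 to 0.28, Grip1 to 0.22, Nap1l1 to 0.03, Nkain2 to 0.14, Kitl to 0.15 and Cep290 to 0.16. Txnrd1 lost its call there, and Nodal, Usp44, Anks1b, Prep, Akap12 and Grip1 gained one toward 129. Nap1l1, called toward cas in the main fit, no longer lay toward cas. Without the block, Sirt1, Ank3, Txnrd1, Cnot2 and Nap1l1 were no longer called. The test for a change beyond 1.5-fold moved more: 29 of the 80 named genes lost their call. Among them were Foxo3, Rev3l, Arid5b, D10Wsu102e, Fyn, Bcr, Frs2 and Lin28b, and 51 kept their status. No paired analysis was possible because the libraries form 1 group; the block pairs the alleles within a library. Few reads, like the scaling and the block, limit what single ratios can show.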
